A study of Mus musculus with 4 samples.

Results

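The substantia nigra (SN), where the dopamine neurons that project to the dorsal striatum lie, was compared between GqVeh and CNO alone mice, the control groups of a spatial transcriptomics study of chronic dopamine neuron activation. The comparison takes 5 columns of values, each the SN of 1 mouse (3 GqVeh and 2 CNO alone), out of 47 columns for regions of 8 mice, and covers every gene measured. All mice were DAT (iCre/iCre) males of 3 to 4 months, with Cre expressed from the dopamine transporter gene, were housed singly with a running wheel, and drank 2% sucrose for 1 week. GqVeh mice had the conditional virus AAV-hM3Dq(Gq)-mCherry injected into the midbrain on both sides and drank sucrose without drug. The virus carries hM3Dq, a designer receptor that activates Gq signalling when clozapine-N-oxide (CNO) binds it. CNO alone mice were not injected and drank CNO at 300 mg/L with the sucrose. Surgery and virus on one side and CNO on the other therefore differ together between the groups, and their effects cannot be told apart. SN discs had to hold a whole soma positive for tyrosine hydroxylase (TH), and in injected mice positive for mCherry as well, so that the choice of discs also differed between the groups. None of the 8 mice was both uninjected and free of CNO.

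Major histocompatibility complex (MHC) class I proteins carry peptides of a cell's own proteins to its surface, and each is a heavy chain, such as the product of H2-K1 or H2-D1, bound to β2-microglobulin from B2m. Interferons raise these genes through transcription factors that bind short promoter elements, together with many further interferon-stimulated genes. Microglia, the resident phagocytes of brain tissue, make the C1q chains of complement and cathepsin S (Ctss), and astrocytes raise the intermediate filament gene Gfap when they react to injury.

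Visium reads RNA from a 10 μm section on barcoded discs, and each transcript is counted by a unique molecular identifier (UMI). The SN of a mouse rests on 3 to 7 discs and on 11644 to 71906 UMIs, and levels below are UMIs per 10000 UMIs of the column. GqVeh mouse 784 stood apart, with 2328.8 UMIs per disc against 9497 to 12614 in the other 4 mice, so that 0 UMIs there allow a level of up to 2.58 (3 UMIs). In that mouse 41.2% of the 6174 tested genes had no UMI. CNO alone mouse C2W2 stood apart in hemoglobin, with a summed level of 18.5 for blood cell genes against 0.202 to 1.95 in the other 4. Of 13 markers of SN dopamine neurons, 11 were tested. Their median log2 difference, GqVeh minus CNO alone, was -0.59 (-0.21 without mouse 784), and 1 was positive. Th was at 16.3 to 26.7 in all 5 mice. Aldh1a1 was at 5.97 in GqVeh mouse 785 and at 22.9 to 33.5 in the other 4. The transcription factor gene Sox6 was too low to test. It had 2 UMIs in CNO alone mouse C1W7 (level 0.278), 1 in C2W2 (0.264) and none in the GqVeh mice. In mice 784, 785 and 802, 0 UMIs allow levels of up to 2.58, 0.526 and 0.605, above both CNO alone levels. In the thalamus of the same mice Th had a mean level of 0.0988.

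After adjustment, 4 genes were higher in GqVeh mice (B2m, Gfap, H2-K1 and Ctss) and none was lower. Their promoters are shown because the 4 genes rose and include known targets of interferon. Each line below holds the 250 bases before the first RefSeq transcription start of GRCm38.p6, the assembly of mm10, in the gene's direction, with matches to the searched motifs in capitals. The windows are chr2:122147437-122147686 (+ strand) for B2m, chr17:34000348-34000597 (- strand) for H2-K1, which has 2 listed starts, chr3:95526536-95526785 (+ strand) for Ctss and chr11:102897201-102897450 (- strand) for Gfap.
B2m: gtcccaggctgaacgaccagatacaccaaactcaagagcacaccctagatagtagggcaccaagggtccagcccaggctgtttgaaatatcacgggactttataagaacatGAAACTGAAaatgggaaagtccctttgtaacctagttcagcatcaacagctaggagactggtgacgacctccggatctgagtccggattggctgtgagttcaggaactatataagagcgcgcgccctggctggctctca
H2-K1: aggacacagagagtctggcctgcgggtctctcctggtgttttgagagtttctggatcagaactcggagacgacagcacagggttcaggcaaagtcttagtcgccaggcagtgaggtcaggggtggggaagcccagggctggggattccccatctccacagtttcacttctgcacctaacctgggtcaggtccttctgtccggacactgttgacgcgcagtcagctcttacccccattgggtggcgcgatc
Ctss: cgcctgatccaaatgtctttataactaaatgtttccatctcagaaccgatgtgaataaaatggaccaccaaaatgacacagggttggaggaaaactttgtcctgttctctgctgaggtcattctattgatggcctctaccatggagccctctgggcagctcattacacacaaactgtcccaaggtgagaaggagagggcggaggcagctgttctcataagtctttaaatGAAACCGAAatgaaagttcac
Gfap: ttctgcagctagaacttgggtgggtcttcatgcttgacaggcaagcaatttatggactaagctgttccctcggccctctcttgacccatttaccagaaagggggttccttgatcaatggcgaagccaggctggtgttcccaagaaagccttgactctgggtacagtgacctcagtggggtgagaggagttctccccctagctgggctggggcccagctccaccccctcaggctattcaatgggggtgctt
The capitals mark the core of the interferon-stimulated response element, searched as GAAANNGAA on both strands. Counted back from the start, it began at -139 in B2m, as GAAACTGAA, and at -21 in Ctss, as GAAACCGAA, and 7.13% of all 32851 promoter windows of that length held it. H2-K1 and Gfap had no match to this pattern in these windows. The interferon-gamma-activated site (GAS), searched as TTCNNNGAA, which reads the same on both strands, was in 7.02% of all windows. The NF-κB element, searched as GGGANTTCC on both strands, was in 1.43%. Neither pattern matched any of the 4 windows. Sites that differ from the searched patterns in length or in order of bases were not searched, so a missing match does not show that an element is absent. A match describes the sequence and is not a measured binding site.

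B2m, on chromosome 2 from 122147687 to 122153082 in mm10, encodes the light chain of MHC class I and rose in GqVeh mice. Its level was 28.3 in mouse 784, 10.0 in mouse 785 and 11.9 in mouse 802, against 1.25 in CNO alone mouse C1W7 and 1.85 in mouse C2W2. The lowest GqVeh level lay well above the highest CNO alone level, and the mean was 10.8-fold higher in GqVeh (16.7 ± 10.1, SD, n = 3, against 1.55 ± 0.423, SD, n = 2). On the log2 scale with 0.5 added, which understates changes of low genes, the difference was 2.94 (standard error 0.38, limma adjusted p = 7.52e-11). A higher level in these discs can come from more cells of a type or from more RNA per cell, which cannot be told apart. The 3 GqCNO mice, injected and given CNO, had B2m levels of 44.2, 27.0 and 45.4, the first and second of these from 1 disc each.

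H2-K1, an MHC class I heavy chain gene on chromosome 17 (33996012 to 34000619), was the partner of B2m among the genes called. Its level was 5.15, 2.63 and 4.64 in mice 784, 785 and 802, against 0.695 in mouse C1W7 and 0 of 37841 UMIs in mouse C2W2, which allows a level of up to 0.793. The groups did not overlap, and the log2 difference was 2.54 (standard error 0.53, limma adjusted p = 0.00367). H2-D1, a second heavy chain gene on the same chromosome, was at 5.15, 4.74 and 4.84 against 0.973 and 1.06. Its GqVeh values lay close together, and its log2 difference of 1.84 did not pass (limma adjusted p = 0.137). H2-K1, H2-D1 and H2-T23 are closely related genes, and how reads they share affected their counts was not tested. The H2-K1 call was lost without C2W2 (log2 difference 1.91), without mouse 802 (2.44, limma adjusted p = 0.0626) and in edgeR (adjusted p = 0.137).

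Ctss encodes cathepsin S, a lysosomal protease that trims the invariant chain of MHC class II, and lies on chromosome 3 (95526786 to 95556405). Its level was 10.3, 5.09 and 3.83 in mice 784, 785 and 802, against 0.556 in C1W7 and 0.793 in C2W2, with no overlap. The log2 difference was 2.45 (standard error 0.52, limma adjusted p = 0.00367). It did not pass without mouse 784 (2.07, limma adjusted p = 0.155), C1W7 (2.31, adjusted p = 0.498) or C2W2 (2.60, adjusted p = 0.299).

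Gfap, on chromosome 11 (102887336 to 102897200), was the astrocyte gene that rose. Its level was 7.73 in mouse 784, 1.40 in 785 and 6.25 in 802, against 0.417 in C1W7 and 0 UMIs in C2W2. The groups did not overlap, but mouse 785 lay nearer to C1W7 than to the other GqVeh mice. The log2 difference was 2.80 (standard error 0.53, limma adjusted p = 0.000420). The CNO alone mice held 3 Gfap UMIs in all and the GqVeh mice 48, a pooled ratio of 14.9 with a 95% exact interval of 4.79 to 74.6 that covers counting error only. Gfap was also among the genes by which the authors left out glia-rich discs, so its level reflects what remained after that choice. Without C2W2 the difference was 2.37 and did not pass (limma adjusted p = 0.691).

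**Figure D1:**
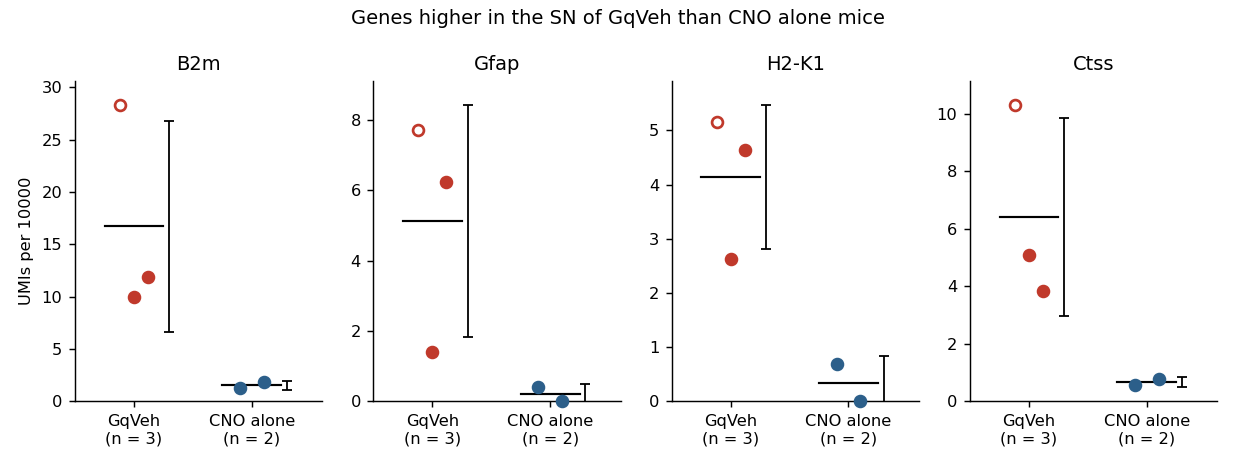
Levels of B2m, Gfap, H2-K1 and Ctss in the SN (vertical axes, UMIs per 10000, from 0) in each GqVeh and CNO alone mouse. Points are mice (open point, mouse 784), horizontal lines are means and bars beside them are ± 1 SD, drawn from 0 where they would go below it. All 3 GqVeh mice lie above both CNO alone mice in each panel, and Gfap in mouse 785 (1.40) lies closest to them.

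The 4 genes were 0.0648% of the 6174 genes tested, and those called lower were 0.0% (0 genes). At an unadjusted p under 0.05, limma gave 46 genes higher (0.745%) and 44 lower (0.713%), and edgeR on the recovered UMIs called 2 higher and 1 lower after adjustment. All 3 GqVeh mice lay above both CNO alone mice for 7.79% of tested genes and below them for 11.3%. The median log2 difference over all tested genes was -0.05. Both array pairs held both groups, and the log2 difference within pair 1 (mouse 802 minus C2W2) and within pair 2 (mean of 784 and 785 minus C1W7) was 2.40 and 3.31 for B2m. The within-pair differences were 3.76 and 2.11 for Gfap, 3.36 and 1.82 for H2-K1 and 1.75 and 2.88 for Ctss. Here limma's variance trend, with an infinite prior weight, gave each gene the spread of genes of its level, so that a gene's own spread did not enter its p. Exact two-sided permutation tests over the 10 ways to choose 3 of 5 mice cannot go below p = 0.1, and B2m, H2-K1 and Ctss were at 0.1 and Gfap at 0.2. Over 19 other settings B2m passed in 17, Gfap in 15, H2-K1 in 11 and Ctss in 9, and none of the 4 changed direction. Those that ended the B2m call were the methods' t-test with Benjamini-Hochberg added here (adjusted p = 0.981) and thinning every mouse to 11644 UMIs (limma adjusted p = 0.0985).

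**Figure D2:**
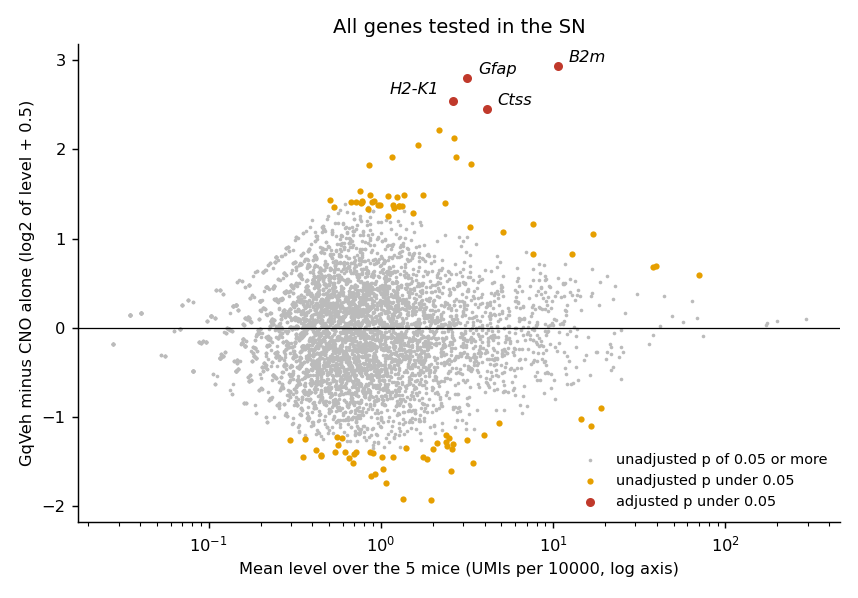
Log2 difference between GqVeh and CNO alone mice in the SN (vertical axis) against the mean level over the 5 mice (horizontal log axis, UMIs per 10000), 1 point per tested gene, without the 10 genes at 0 in all 5 mice. The 4 named genes at an adjusted p under 0.05 lie above 2.4, and the 46 higher and 44 lower genes at an unadjusted p under 0.05 (these 4 included) lie at the upper and lower edges of the cloud.

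Among MHC class I genes, covering heavy chains, peptide transport, the immunoproteasome and peptide loading, 2 of 19 tested members rose and none fell. Of all tested genes 0.0648% passed as higher. The list median was 0.51 on the log2 scale against -0.05 over all tested genes, and 5 of the 19 had no UMI in either CNO alone mouse and so could not differ downward. H2-T23, a nonclassical heavy chain gene, was at 2.58, 0.526 and 1.41 against 0.139 and 0.264, a log2 difference of 1.38 (unadjusted p = 0.0365, not passing after adjustment). The summed level of the list was 55.0, 34.7 and 41.8 in mice 784, 785 and 802, against 16.0 and 13.7 in C1W7 and C2W2. The summed levels did not overlap between the groups.

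The MHC class II list had 7 tested members, 4 of them without a UMI in either CNO alone mouse, and a median of 0.80, and Ctss was its only member that passed. Cd74, the invariant chain, was at 0, 2.11 and 0.605 in mice 784, 785 and 802, and H2-Aa, a class II chain, at 0.859, 0.526 and 0.605. Neither had a UMI in the CNO alone mice, where 0 of 109747 UMIs allow a level of up to 0.273. That puts the GqVeh mean at least 3.31-fold higher for Cd74 and at least 2.43-fold higher for H2-Aa, from 15 and 7 UMIs.

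Of 26 tested interferon-stimulated genes none passed after adjustment. In 11 of the 26 neither CNO alone mouse had a UMI, so these could not differ downward and were tested only through the level in injected mice, and the median of 0.79 draws on them. Ifi27l2a, an interferon-induced gene, was at 3.44, 0.175 and 2.22 against 0.139 and 0.264, and mouse 785 lay between the CNO alone mice. These genes are scarce, since 19 of the 35 list genes in the files had no UMI in either CNO alone mouse. The summed level was 36.1, 12.5 and 19.6 in GqVeh against 6.26 and 3.44, without overlap.

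In complement, the 3 chains of C1q led the 7 tested genes, and none passed after adjustment. The list median was 0.77, and 1.44 without mouse 784, where 6 were tested, and 2 of the 7 had no UMI in either CNO alone mouse. C1qa was at 6.87, 2.28 and 3.23 in mice 784, 785 and 802, against 0.417 and 0.529, with a log2 difference of 2.13 (limma adjusted p = 0.0664). C1qc was at 6.01, 2.11 and 2.22 against 0.278 and 0.264, and C1qb at 6.01, 3.51 and 2.82 against 0.834 and 0.529. None of the 3 chains overlapped between the groups, and 7.79% of all tested genes were likewise above without overlap.

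The microglia list, which shares Ctss and the C1q chains with other lists, had a median of 1.05 over 19 tested members, and 0.77 without mouse 784. Of the 19, 9 were higher at an unadjusted p under 0.05, against 0.745% of all tested genes, and Ctss alone passed after adjustment. Aif1, a cytoskeletal protein gene of microglia used by the authors to leave out discs, was at 1.72, 0.526 and 1.41 against 0.139 and 0. P2ry12, the purinergic receptor gene used for the same purpose, had at most 1 UMI in any of the 5 mice and was too low to test. Tmem119 was at 0, 0.175 and 0.605 in GqVeh against 0.278 and 0, so that this homeostatic microglia gene overlapped between the groups. Mpeg1, a pore-forming protein gene of phagocytes and 1 of the 8 largest differences upward, was at 3.44, 1.40 and 0.807 against 0.139 and 0. The summed level of the list was 108, 65.1 and 67.8 in GqVeh against 36.6 and 32.0 in CNO alone. A large part of these sums was the single gene Cst3, at 54.1, 42.1 and 44.4 against 29.9 and 27.2. Cst3 also had a mean level of 25.3 in the thalamus of the same mice. The sum moved with the immune lists above. The part of a different number of microglia in the discs in those results was not tested. Of 15 T cell genes 12 had no UMI in any of the 5 mice, Cd3e, Cd8a and Trac among them, and the chemokine gene Ccl5 was at 2.58, 0 and 1.01 against 0 and 0.

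Lysosome genes had a median of 0.38 over 21 members, and none passed. The median was 0.20 without mouse 784. Ctsd, the aspartic protease cathepsin D, was at 12.9, 9.13 and 8.07 against 3.75 and 4.49, without overlap and with a log2 difference of 1.17 (unadjusted p = 0.00439).

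Of 24 tested astrocyte genes, Gfap was the only member with an unadjusted p under 0.05. The list median was 0.06, and 0.24 without mouse 784. The summed level was 110, 113 and 119 in GqVeh mice against 102 and 91.2 in CNO alone mice. Aldh1l1, the second astrocyte gene used to leave out discs, was at 1.72, 0.526 and 1.01 against 0.834 and 0.264, with overlap. Of 11 tested genes of reactive astrocytes, Gfap passed. The list median was 0.32, 8 of the 11 were positive, and 3 lay above without overlap, against 7.79% of all tested genes. Cd9, a tetraspanin gene, was at 3.44, 1.05 and 1.61 against 0.417 and 0.264 (log2 difference 1.49, limma adjusted p = 1). Stat3 was at 0.859, 0.351 and 1.01 against 0.695 and 0, with overlap. Cd63 was at 0.859, 0.526 and 2.22 against 1.95 and 1.85, also with overlap. Lcn2, a secreted marker of reactive astrocytes, had no UMI in any of the 5 mice.

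**Figure D3:**
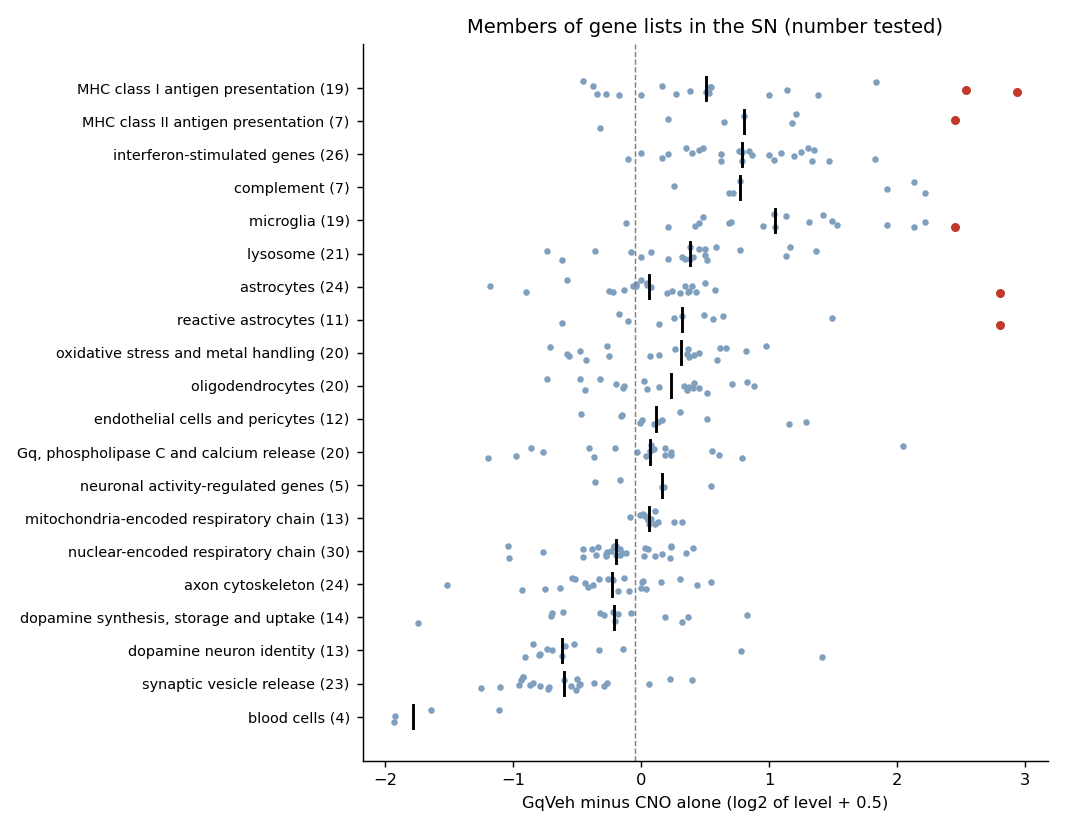
Log2 difference between GqVeh and CNO alone mice for each tested member of 20 gene lists (1 point per gene, vertical position within a row has no meaning). Red points passed at an adjusted p under 0.05, black ticks are list medians and the dashed line is the median of all tested genes (-0.05). The medians of the MHC class II, interferon, complement and microglia lists lie between 0.77 and 1.05, and those of synaptic vesicle release and dopamine neuron identity at -0.61 and -0.62.

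Genes of dopamine synthesis, storage and uptake were not called. Th, the rate-limiting enzyme, was at 16.3, 17.5 and 26.0 against 21.7 and 26.7, with a log2 difference of -0.29 (standard error 0.35). Slc6a3, the dopamine transporter gene from which Cre is expressed, was at 1.72, 5.26 and 6.05 against 7.23 and 6.08. All 3 GqVeh values were below both CNO alone values, and 802 and C2W2 differed by little. Slc18a2, the vesicular monoamine transporter, was at 5.15, 8.42 and 9.68 against 6.54 and 11.6. These genes were used to choose the discs. Maoa, which degrades monoamines, was at 0.859, 0 and 0.202 against 1.67 and 2.64, the only 1 of the 14 members with an unadjusted p under 0.05 (0.0139), and it did not pass.

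Dopamine neuron identity genes had a median of -0.62 over 13 tested members, and -0.37 without mouse 784. Nr4a2, a transcription factor that maintains dopamine neurons, was at 0, 0.702 and 1.01 against 0.695 and 1.85. Ntsr1, the neurotensin receptor of these neurons, went the other way, at 1.72, 0.877 and 1.41 against 0.417 and 0, with a log2 difference of 1.41 (limma adjusted p = 1).

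Synaptic vesicle release genes had a median of -0.61 over 23 tested members, 3 of them positive, and none passed. The median was -0.20 without mouse 784. Cplx1, a complexin that clamps vesicle fusion, was at 3.44, 20.2 and 14.5 against 20.6 and 24.6, and Rab3c, a vesicle GTPase gene, at 0, 4.04 and 3.03 against 3.62 and 5.02. Mouse 784 was the lowest in both, and mouse 785 reached the range of the CNO alone mice for Rab3c and came close to it for Cplx1. The summed level was 57.5 in mouse 784, 143 and 128 in mice 785 and 802, and 154 and 168 in C1W7 and C2W2. Axon cytoskeleton genes had a median of -0.23 over 24 members and 0.01 without mouse 784.

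Chrm3, the mouse gene of the M3 muscarinic receptor and 1 of the 20 tested genes of Gq signalling, was at 5.15, 0.702 and 2.02 against 0.278 and 0. All 3 GqVeh values were higher, but 0 UMIs in C2W2 allow a level of up to 0.793, above that of mouse 785. The log2 difference of 2.05 did not pass in the SN (limma adjusted p = 1). The pooled UMI ratio was 9.29 with a 95% exact interval of 2.26 to 81.9 that covers counting error only, not the spread between mice. The designer receptor hM3Dq is built on the human M3 receptor, and whether any of its transcripts were counted as Chrm3 was not tested. The median of the Gq list was 0.07, and 0.01 without mouse 784, and the 5 tested activity-regulated genes, such as immediate early genes, had a median of 0.16 with none at an unadjusted p under 0.05.

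Among the remaining lists, the 13 mitochondria-encoded respiratory genes had a median of 0.06 and the 30 nuclear-encoded genes -0.20 (-0.04 without mouse 784). In oxidative stress and metal handling (20 tested, median 0.31, and 0.10 without mouse 784), Mt1, a metallothionein, was at 18.0, 14.9 and 13.7 against 11.4 and 6.34. Fth1, the ferritin heavy chain, was at 103, 99.2 and 45.2 against 46.6 and 56.0, and mouse 802 was below both CNO alone mice. Blood cell genes had a median of -1.78 over 4 tested members, of which Hbb-bs was at 0.859, 0.175 and 0.202 against 0.834 in C1W7 and 7.66 in C2W2. Mouse C2W2 alone stood high.

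**Figure D4:**
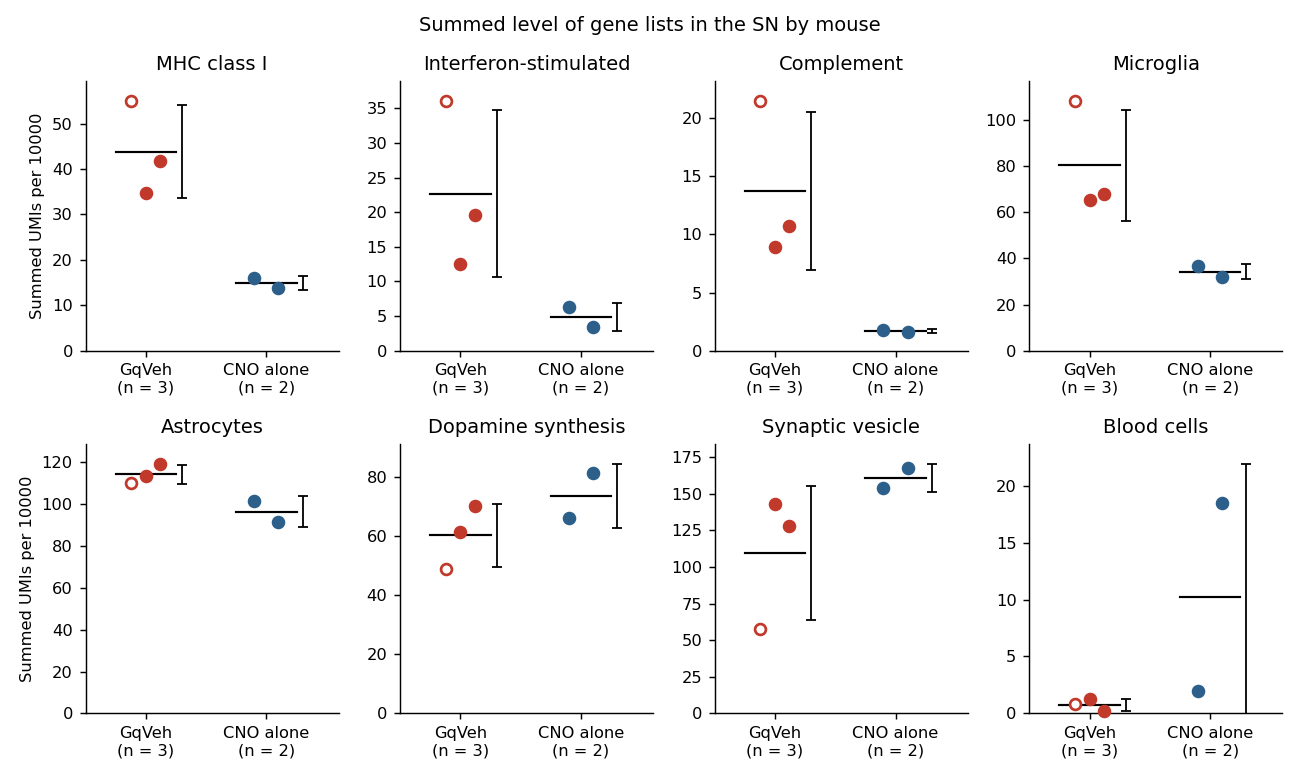
Summed level of 8 gene lists in the SN of each mouse (vertical axes, UMIs per 10000, from 0). Points are mice (open point, mouse 784), lines are means and bars are ± 1 SD, drawn from 0 where they would go below it. The MHC class I, interferon, complement and microglia sums do not overlap between groups, and Cst3 is a large part of the microglia sum. Mouse 784 is lowest for synaptic vesicle genes (57.5), and mouse C2W2 holds most blood cell UMIs (18.5).

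The 8 largest differences downward with an unadjusted p under 0.05 and no overlap were in genes of varied function, and none passed after adjustment. Idh3b, a subunit of the citric acid cycle enzyme isocitrate dehydrogenase, was at 0, 2.11 and 2.22 against 5.01 and 3.44 (log2 difference -1.61, limma adjusted p = 1). Dap3, a mitochondrial ribosome protein gene, was at 0, 0.526 and 0.202 against 1.25 and 2.38, and Slc2a3, the neuronal glucose transporter, at 0, 0.351 and 0.202 against 1.11 and 1.59. The others were Maoa, Sdr39u1, Nrip3, Snrnp70 (a spliceosome protein) and Laptm4b, with log2 differences from -1.74 to -1.45. In 7 of the 8 mouse 784 had no UMI, and its limit of 2.58 lies above both CNO alone levels of Dap3, Snrnp70, Laptm4b and Slc2a3. Mouse 784 also had no UMI in 36 of the 44 genes at an unadjusted p under 0.05 downward, and in 0 of the 46 upward. Without mouse 784, 8 of those 44 and 18 of those 46 genes still had an unadjusted p under 0.05.

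The same mice were then compared in the ventral tegmental area (VTA), the neighbouring dopamine region, in the thalamus of the same sections, and in the caudoputamen (CP) of striatal sections. B2m in the VTA was at 17.0, 6.59 and 12.3 in mice 784, 785 and 802 against 1.37 and 2.16 in C1W7 and C2W2, without overlap. In the thalamus it was at 1.38, 1.97 and 2.14 against 1.25 and 1.36, a narrow gap, and in the CP at 0.795, 0.874 and 0.816 against 0.852 and 0.668, with overlap. The difference in the SN exceeded that in the thalamus by 2.58 (standard error 0.54, limma adjusted p = 0.00861) and that in the CP by 2.86 (standard error 0.50, limma adjusted p = 0.00210). Against the thalamus the B2m call was lost without 784 (1.99), 802 (2.84), C1W7 (2.42) or C2W2 (2.75), and against the CP without 784 (2.39) or C1W7 (2.54). It exceeded that in the VTA by 0.55 (standard error 0.65), which did not pass (adjusted p = 0.99972).

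H2-K1 behaved alike in values, with VTA levels of 4.12, 1.55 and 4.68 against 0.428 and 0.377, and CP levels of 0.253, 0.276 and 0.217 against 0.277 and 0.211. Its SN difference exceeded that in the CP by 2.53 (standard error 0.53, limma adjusted p = 0.0218) and that in the thalamus by 2.27, which did not pass (adjusted p = 0.0538). The first of these was lost without 784 (2.37), 802 (2.40) or C2W2 (1.97). Ctss in the CP was at 0.822, 0.769 and 0.718 against 0.838 and 0.785, and its SN difference was larger by 2.50 (standard error 0.52, adjusted p = 0.0218), a call lost without 784 (2.15), C1W7 (2.32) or C2W2 (2.67). In the VTA Ctss was at 5.40, 0.775 and 6.09 against 0.600 and 0.618, and mouse 785, with 2 discs there, lay near the CNO alone mice. Gfap in the VTA was at 4.66, 0.775 and 4.80 against 0.400 and 0.480, and in the thalamus at 0.842, 0.484 and 2.79 against 0.600 and 0.495, with overlap. Its SN difference exceeded that in the thalamus by 2.16 (limma adjusted p = 0.0901), and its CP level was under the minimum for the test. Chrm3 in the VTA was at 3.29, 1.55 and 1.76 against 0.0286 and 0, a log2 difference of 2.34 that passed there (limma adjusted p = 0.0202), with levels of at most 0.0995 in the thalamus.

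Over all genes, the difference was larger or smaller in the SN than in the VTA for 0 of 5341 genes (0.0%, with 76 at an unadjusted p under 0.05), than in the thalamus for 1 of 5093 (0.0196%) and than in the CP for 3 of 4816 (0.0623%). In the single regions, limma called 5 genes higher in the VTA (0.0792% of 6312), and none lower there or in either direction in the thalamus or CP. The 5 were B2m, Chrm3, H2-D1, H2-K1 and the interferon-stimulated gene Bst2, with adjusted p-values of 0.0127, 0.0202, 0.0202, 0.0469 and 0.0469. Bst2, or tetherin, which holds budding virus at the cell surface, was at 2.01, 0.775 and 1.87 in the VTA of mice 784, 785 and 802, against 0.0571 and 0.103. SN and CP values come from different arrays that the authors normalized separately, and were set to the same total here before the comparison. A difference that missed the threshold between SN and VTA does not show that the regions respond alike.

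**Figure D5:**
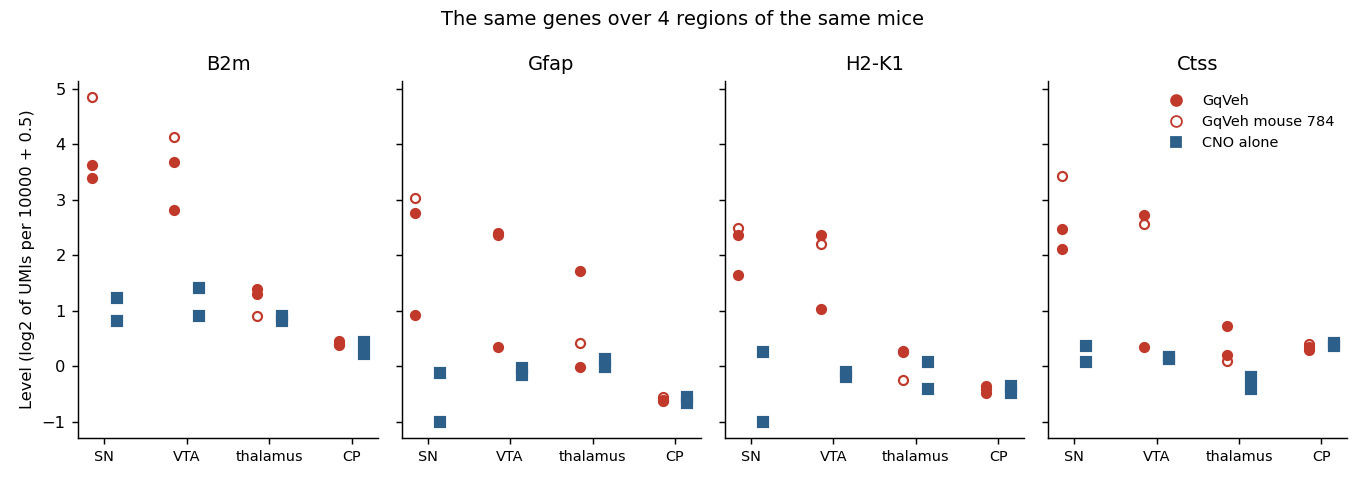
Levels of B2m, Gfap, H2-K1 and Ctss (vertical axis, log2 of UMIs per 10000 plus 0.5) in the SN, VTA, thalamus and CP of each GqVeh mouse (circles, open for mouse 784) and CNO alone mouse (squares). The groups stand apart in the SN and VTA for B2m and H2-K1 and lie together in the CP.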

How the data were processed

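Visium arrays (10x Genomics, v1) held midbrain and striatal sections of the same mice. Per the labels, the authors deposited a signal per gene, averaged by region and mouse across discs after median normalization, and their notes name Space Ranger and mm10, while the annotation release is not given in the sources used here. The authors chose SN discs by position, a whole TH-positive soma (mCherry-positive too in injected mice) and the levels of Th, Slc6a3 and Slc18a2, and left out discs high in Gfap, Aldh1l1, Aif1 or P2ry12. In all SN columns 100% of values under 200 steps were whole multiples (within 0.05 steps) of 1 UMI, so that UMIs were recovered (11644 to 71906 per compared mouse).

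Each column was rescaled to 10000, 0.5 was added, log2 was taken, and the 6174 genes with a mean of at least 0.25 over the 8 SN columns were tested. A gene listed in the file of 1 midbrain array only (1042 and 1274 genes) was set to 0 in the other. limma 3.58.1 in R 4.3.3 fitted 3 group means with a variance trend, and p-values were adjusted by Benjamini-Hochberg. GqCNO mice added only to the spread and to each gene's mean over the 8 columns. That mean chose the tested genes and, on the log2 scale, set where the variance trend was read. Through that mean, 10 genes at 0 in all 5 compared mice were tested. Differences between regions were fitted per mouse, without GqCNO mouse 801 in the thalamus, where it has no column. Alternatives changed scaling, added constant, filter, mice, array block, variance trend and test, including edgeR 4.0.16 on the UMIs and thinning. The methods' t-test was run here as Student's test on the log2 values with Benjamini-Hochberg adjustment, while the authors took an unadjusted p under 0.05. The mouse was the replicate, and labels name no separate litters or days. The main fit was run on simulated data in which only genes well above the testing minimum were changed, all upward. Falls and genes near the floor were not tested in this way.

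Named were genes at an adjusted p under 0.05, the 8 largest differences each way at an unadjusted p under 0.05 without overlap, up to 4 members per list with the smallest p, B2m, Gfap and the genes used to choose discs. Tmem119, Cst3, Cd3e, Cd8a, Trac, Lcn2, Sox6 and Aldh1a1 were named beside them after their values were seen. The members and the 29 lists were chosen with earlier results of these data known, and members overlap between lists. Promoters and positions are from RefSeq (GRCm38.p6), matched by symbol for 6102 of 6174 genes. Some genes are not reported here.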

Additional observations from a re-analysis of the deposited data

Results flagged for a closer look

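In 4 cases, picked out because the effect differed between regions by a test, the GqVeh minus CNO alone difference passed in the comparison of the SN with another region. B2m differed more in the SN than in the CP, by 2.86 on the log2 scale, and than in the thalamus, by 2.58. Ctss (2.50) and H2-K1 (2.53) differed more in the SN than in the CP. In each case every GqVeh mouse was above both CNO alone mice in the SN, and in the CP the groups overlapped, while in the thalamus the GqVeh mice lay above the CNO alone mice by a narrow gap for B2m. None of the 4 passed with the added constant at 0.1 or 1 or without mouse 784. B2m against the thalamus was also lost without 802, C1W7 or C2W2, B2m against the CP without C1W7, Ctss without C1W7 or C2W2, and H2-K1 without 802 or C2W2. Without C1W7, the genes called against the thalamus were Hba-a1, Hba-a2 and Hbb-bs. SN columns rest on far fewer discs (3 to 7) than CP columns (455 to 560).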

How the results depend on the processing

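Genes higher in GqVeh, 4 as reported, numbered 2 with TMM scaling, 7 with the constant at 0.1, 1 with a mean of at least 1, 8 with only the 5 mice fitted, 2 without the variance trend, 2 in edgeR, 2 by the methods' t-test after Benjamini-Hochberg (H2-D1, adjusted p = 0.0381, and Igfbp2, named after its value was seen, and none of the 4) and 0 after thinning (122 at an unadjusted p under 0.05 by limma). Genes lower numbered 1 in edgeR (Hbb-bs) and 6 by the methods' t-test. At its own unadjusted threshold the methods' t-test gave 98 higher and 129 lower. Leaving out each mouse gave 1 to 5 higher (1 without C2W2, 5 without 785) and 0 lower, with a lone CNO alone mouse assumed to vary like the other groups. H2-D1 passed also with the constant at 0.1 and with only the 5 mice fitted. B2m was 2.94 by the methods' t-test and 3.10 after thinning, not passing in either. Gfap was 2.80 with a mean of at least 1 and by the methods' t-test and 2.19 after thinning, passing in none, and 2.37 to 3.46 leaving out each mouse. Differences from the thalamus, 1 gene as reported, numbered 2 on the values as deposited and 0 with constants of 0.1 and 1 or a mean of at least 1, and 0 to 5 leaving out each mouse. Those from the CP, 3 as reported, numbered 0 with constants of 0.1 and 1, and 0 to 3 leaving out each GqVeh mouse. They numbered 0 also with a mean of at least 1, where the CP levels of all 3 genes were too low to be tested. The replicate numbers in the labels are those of the arrays, and each array pair holds both groups. Fitting that number as a replicate block left 4 genes higher and 0 lower. Without mouse 784 that block, chosen after seeing the data, gave 3 higher. Of 50 named genes over 19 settings 45 kept their direction. The others were Laptm4b (0.24 after thinning), Aldh1l1 (-0.73 after thinning), Slc18a2 (0.10 after thinning, 0.045 with the array block and without mouse 784, and -0.60 to 0.19 leaving out each mouse), Tmem119 (0 after thinning and -0.11 to 0.53 leaving out each mouse) and Aldh1a1 (-0.74 to 0.46 leaving out each mouse). The cause was not tested. Of 551 list medians over settings 486 moved by under 1 SD and 65 by more. TMM scaling moved the median of all genes from -0.05 to -0.15 and the constant 0.1 to -0.17. In mouse 784, a true level of up to 2.58 can give 0 UMIs.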
